A study of Arabidopsis thaliana with 24 samples.

Results

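The genes described here lie at the tip of the top arm of Arabidopsis thaliana chromosome 3, where seedling RNA of F1 hybrids carrying prmt5-5 held less RNA of the Landsberg erecta (Ler) allele than wild-type (WT) F1. They were chosen by locus identifier, from AT3G01010 to AT3G05030, leaving out 5 loci: AT3G04610 (FLK), AT3G01150 (PTB1), AT3G01600 (NAC044), AT3G03340 and AT3G02310. This gave 472 members of 33602 gene identifiers, of which 465 matched the RefSeq annotation of assembly TAIR10.1 and span chr3:1609-1397627, with 444 annotated as protein coding. The stretch itself was picked because its Ler share was low in prmt5-5 F1. Those shares are therefore given as a description with no test, while the parental libraries and the WT F1 libraries played no part in the choice. The label holds for 5 of the 6 prmt5-5 F1 libraries and not for the other one.

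The study sequenced polyadenylated RNA of entire 9-day seedlings grown in continuous light at 22 °C, as 24 libraries in 8 groups of 3. Parental groups were WT Columbia (Col), prmt5-5 Col, WT Ler and prmt5-5 Ler. The prmt5-5 allele was isolated in Col, and prmt5-5 Ler was made by 7 generations of backcrossing to Ler with selection for the mutant allele. WT F1 came from WT Col and WT Ler, and prmt5-5 F1 from prmt5-5 Col and prmt5-5 Ler, each in both orders of the parents (Col x Ler and Ler x Col). For F1, each gene has a count for its Col allele and one for its Ler allele. Nothing in the labels says that replicates came from separate cultures, so p-values measure the spread between these samples, which may be technical.

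Parental libraries held 36993250 to 72713735 counts and F1 libraries 6047673 to 29376326 allele counts, and the members took 1.596% to 1.905% of the F1 allele counts. Of the members, 385 passed the filter on low counts in the parental libraries, 64 had no allele count in any F1 library, and 291 had at least 20 allele counts in each F1 group. PRMT5 RNA did not separate the genotypes (30 to 33.9 CPM, counts scaled to library size, in the 6 WT parental libraries and 30.2 to 37.6 in the 6 prmt5-5 ones). The Ler share of the 98 genes within 300 kb of PRMT5 was 0.85% ± 0.06 and 1.01% ± 0.35 (SD, n = 3 each) in the 2 prmt5-5 F1 groups. Shoot markers summed to 28400 to 35900 CPM in parental and 9630 to 23600 CPM in F1 libraries. F1 sums hold allele counts only, so parental and F1 sums cannot be compared as amounts of tissue. The shoot marker RBCS1A had 11800 to 16800 CPM in parental libraries and 7.2 to 16.7 CPM in F1 libraries. Seed markers stayed at 0 to 7.38 CPM and flower markers at 0 to 2.93 CPM. In such bulk seedlings, fewer cells of a type and less RNA per cell cannot be told apart.

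As background, PRMT5 is an arginine methyltransferase that places symmetric dimethylation on splicing proteins and histones, and Arabidopsis mutants in it splice many introns poorly and flower late. In an F1, both parental alleles of a gene share a nucleus, so a difference between them in RNA is read as a cis difference, whereas a difference between parents can also come from elsewhere in the genome. Repeated backcrossing replaces the genome of the donor accession by that of the recurrent parent, except at the selected allele and wherever donor segments remain.

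Sequences are shown for the edges of the stretch and for the pair of members with the largest WT accession differences among those with counts in every parental group, since the results turn on both. All are the plus strand of RefSeq TAIR10.1, read 5′ to 3′, and are Col reference letters. The first 4 lie beside the intervals where the share changed, with the outermost 20 bases of the annotated gene in capitals: CYP94B2 (minus strand, chr3:314101-314220), SOX (minus strand, chr3:314593-314712), AT3G05165 (chr3:1462944-1463063) and AT3G05170 (chr3:1466383-1466502). The last 2 hold 200 bases before the annotated start and then the first 20 bases of the gene in capitals: SADHU6-1 (plus strand, chr3:525170-525389) and AT3G03855 (plus strand, chr3:986741-986960).
CYP94B2 side: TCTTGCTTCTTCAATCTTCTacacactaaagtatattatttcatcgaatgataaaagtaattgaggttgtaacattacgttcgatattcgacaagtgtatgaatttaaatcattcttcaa
SOX side: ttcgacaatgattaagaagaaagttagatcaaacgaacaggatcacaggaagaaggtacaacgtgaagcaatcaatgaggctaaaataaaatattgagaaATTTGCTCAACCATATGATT
AT3G05165 side: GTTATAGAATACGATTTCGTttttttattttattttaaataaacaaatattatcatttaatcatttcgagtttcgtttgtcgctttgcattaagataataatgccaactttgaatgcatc
AT3G05170 side: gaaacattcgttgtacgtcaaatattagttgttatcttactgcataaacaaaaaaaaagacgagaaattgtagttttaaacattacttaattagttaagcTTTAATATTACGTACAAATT
SADHU6-1: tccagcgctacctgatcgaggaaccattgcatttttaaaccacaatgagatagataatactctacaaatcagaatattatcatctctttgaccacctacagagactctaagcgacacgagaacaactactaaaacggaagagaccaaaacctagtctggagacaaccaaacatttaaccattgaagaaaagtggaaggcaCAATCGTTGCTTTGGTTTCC
AT3G03855: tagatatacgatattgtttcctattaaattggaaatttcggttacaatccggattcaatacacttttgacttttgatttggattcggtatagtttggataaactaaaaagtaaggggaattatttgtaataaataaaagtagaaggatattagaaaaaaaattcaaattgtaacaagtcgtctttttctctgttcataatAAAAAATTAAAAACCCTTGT

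Summed over the 291 members, the Ler share of allele counts was 47.88% ± 0.13 in WT F1 Col x Ler and 48.09% ± 0.31 in WT F1 Ler x Col (SD, n = 3 each). The 3 prmt5-5 F1 Col x Ler libraries stood at 36.08%, 21.84% and 12.78%, and the 3 prmt5-5 F1 Ler x Col libraries at 48.22%, 9.7% and 30.62%. Replicate 1 of prmt5-5 F1 Ler x Col thus lay with the WT libraries, and the other 5 lay below all 6 WT libraries, each at its own level. Exact 95% binomial intervals were at most 0.3 percentage points to either side, and they cover counting error only. The 285 genes of the next 1.4 Mb of chromosome 3, from AT3G05170, had Ler shares of 47.86% to 48.39% in the 6 prmt5-5 F1 libraries. In the 6 WT F1 libraries these genes stood slightly lower, at 46.61% to 47.54%. A lowered share at levels that differed between libraries was not particular to the region of the members. On chromosome 2, from 6.2 to 6.8 Mb, 42 genes had Ler shares of 19.25%, 22.36% and 21.18% in prmt5-5 F1 Col x Ler and of 5.53%, 29.91% and 22.28% in Ler x Col, against 48.83% to 50.07% in WT F1. The libraries stood in another order there, and replicate 1 of Ler x Col, WT-like on chromosome 3, was the lowest.

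The lowering ran across nearly all members, again as a description of the values that chose the region. The share was lower in prmt5-5 F1 than in WT F1, libraries pooled, in 290 of 291 members. That pool includes the WT-like replicate 1 of prmt5-5 F1 Ler x Col. The median member share was 50% in WT F1, with quartiles of 47.0% and 52.8%, and 25.5% in prmt5-5 F1, with quartiles of 23.0% and 28.5%. Over 16156 other genes the median was 49.9% in WT F1 and 49.8% in prmt5-5 F1. The exception among the members was AT3G04920, a ribosomal protein S24e gene, with 95% and 97.2%. Such genes can have similar copies elsewhere, and whether reads of a copy entered its allele counts was not tested.

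From 0.4 to 1.4 Mb, the share within a library was nearly level. Over 200 kb bins it ranged from 37.16% to 37.48% in prmt5-5 F1 Col x Ler replicate 1, from 13.07% to 15.29% in replicate 3 and from 15.18% to 16.38% in prmt5-5 F1 Ler x Col replicate 2. The 6 prmt5-5 libraries varied by 0.32 to 2.37 percentage points over these bins and the WT libraries by 1.27 to 3.39, so members of a library sat together at a level that differed between libraries. Replicate 2 of prmt5-5 F1 Ler x Col was not level before that, with 0.44%, 8.2% and 15.57% in its first 3 bins. The first bin was low in WT F1 as well, at 43.52% to 44.75%. It holds CA1, a beta carbonic anhydrase of the chloroplast that took 26.5% of all member allele counts and had a Ler share of 41.7% to 42.7% in WT F1.

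**Figure D1:**
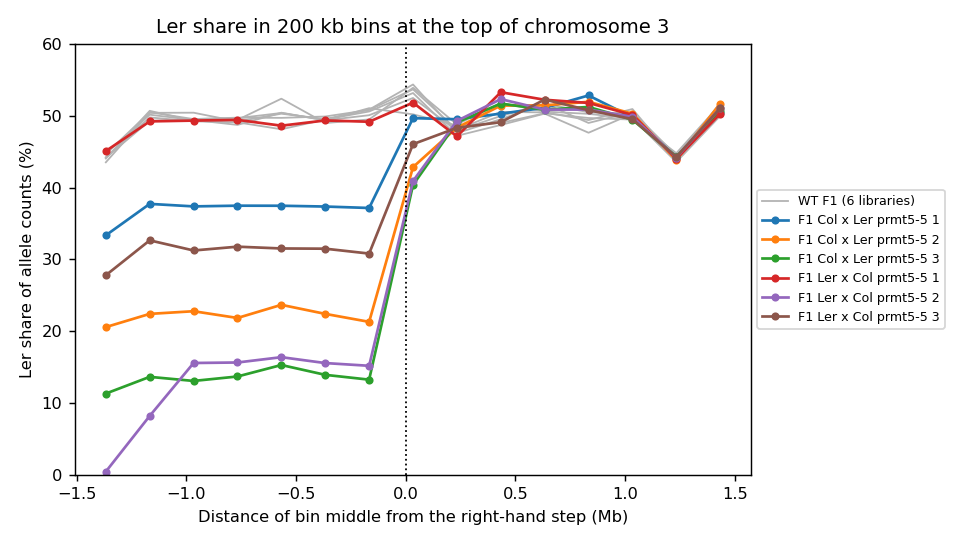
Ler share of allele counts (%) in 200 kb bins along the start of chromosome 3, 1 line for each F1 library, against the distance of the bin's middle from the right edge (dotted line) in Mb. WT libraries (grey) run together, 5 of the 6 prmt5-5 libraries run below them at levels of their own, the bin that holds the edge lies between, at 40.37% to 51.83% in prmt5-5 and 50.2% to 54.36% in WT, and from the next bin on prmt5-5 and WT libraries run together.

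The right edge lay beyond the last member. The last 3 members with enough counts, Cand2, ACP1 (an acyl carrier protein) and NHX2 (a vacuolar sodium/proton antiporter), had pooled prmt5-5 F1 shares of 25.6%, 28.5% and 24.1%. The next 3 genes, which are not members, had 26.4% (HST, the HASTY exportin of the microRNA pathway), 27.5% (AT3G05050) and 27.4% (AT3G05060). AT3G05165 had 27.1%, against 54.6% in WT F1, and its neighbour AT3G05170 had 49.4%, against 51.6%. The pooled share thus stepped between these genes, which lie 3519 bases apart (chr3:1462964-1466482). AT3G05170 held 328 allele counts in the pool. The edge was not placed in single libraries, and sums per gene cannot exclude a change inside either gene. As a share of the WT level, the 11 genes from AT3G05040 to AT3G05165 stood at 78.8%, 43.2% and 27.6% in prmt5-5 F1 Col x Ler and at 94.8%, 31.0% and 65.7% in Ler x Col. For the 221 members from SOX on, the same figures were 75.6%, 45.2% and 27.5%, and 99.5%, 31.6% and 63.6%.

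No edge was seen on the left, where the region starts at the chromosome end. The first members with enough counts, GAUT13 (a galacturonosyltransferase), MUB1 (a membrane-anchored ubiquitin-fold protein) and ENODL16 (an early nodulin-like protein), had pooled prmt5-5 F1 shares of 21.8%, 20.3% and 36.0%.

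A second step appeared inside the region in a single library, prmt5-5 F1 Ler x Col replicate 2. Its 70 members up to CYP94B2 held 525 Ler counts among 128399 allele counts, or 0.41% (exact 95% interval 0.37% to 0.45%), and 33 of these 70 members had no Ler count there. Its 221 members from SOX on stood at 15.75%. Next to the step, AT3G01890 had 2 Ler counts of 300 and CYP94B2, a cytochrome P450, had 0 of 14, while SOX, the sulfite oxidase, had 625 of 3468 (18.0%) and AT3G01920 had 88 of 522 (16.9%). With 14 counts CYP94B2 places little, so the change lies in the 2619 bases between AT3G01890 and SOX (chr3:312074-314692), or, if CYP94B2 is counted with the low side, in the 572 bases between it and SOX. In the other 5 prmt5-5 F1 libraries the members up to CYP94B2 stood at 75.3%, 46.3%, 25.6%, 101.5% and 63.6% of their WT level, next to 75.6%, 45.2%, 27.5%, 99.5% and 63.6% for the members from SOX on.

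**Figure D2:**
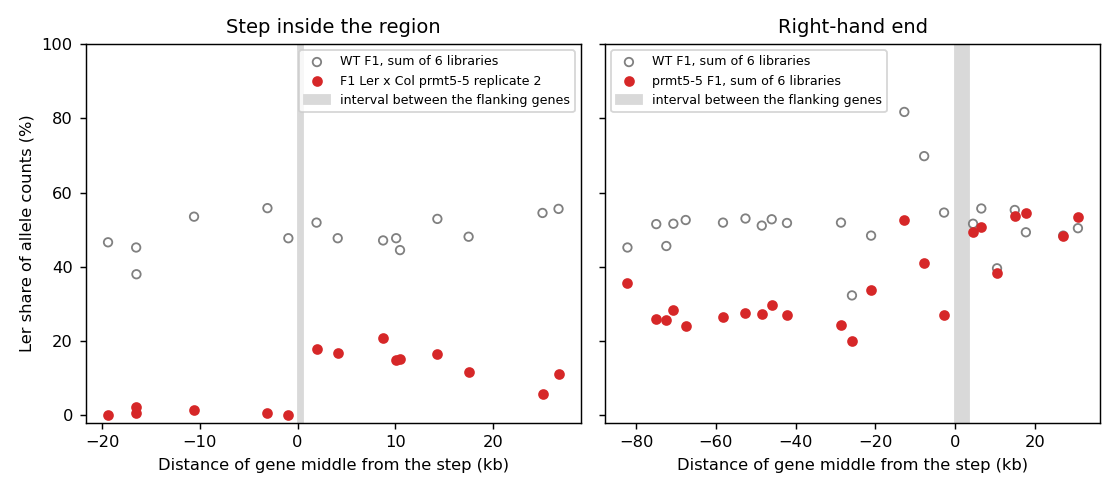
Ler share (%) of single genes around both edges, against the distance of the gene's middle from the step (kb), with open circles for the sum of 6 WT F1 libraries. The filled points step from 0% at CYP94B2 to 18.0% at SOX in prmt5-5 F1 Ler x Col replicate 2 (left panel), and from 27.1% at AT3G05165 to 49.4% at AT3G05170 in the sum of 6 prmt5-5 F1 libraries (right panel).

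Col allele RNA was higher where Ler allele RNA was lower; these are again values that chose the region, with no test. Members' Col alleles summed to 8215 to 9567 CPM in WT F1, and to 12095, 14123 and 16536 in prmt5-5 F1 Col x Ler and 9126, 17158 and 12894 in Ler x Col. Their Ler alleles summed to 7718 to 8786 in WT F1, and to 6827, 3946 and 2423, and 8499, 1844 and 5689, in the same mutant libraries. Libraries with the least Ler RNA had the most Col RNA, and both alleles together came to 15933 to 18353 in WT F1 and 17625 to 19002 in prmt5-5 F1.

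SADHU6-1, a noncoding retrotransposon of the Sadhu family, is a member whose RNA comes almost wholly from the Ler allele, with a Ler share of 96.7% to 100.0% in all 12 F1 libraries. Its F1 level was 58.9, 42.4 and 50.5 CPM in WT Col x Ler and 44.6, 68.3 and 47.6 CPM in WT Ler x Col. In prmt5-5 F1 it was 30.8, 12.2 and 7.93 CPM in Col x Ler and 44.1, 13.2 and 28.0 CPM in Ler x Col. The mutant library with a WT-like region had a WT-like level, and the other 5 lay below all 6 WT libraries. Relative to the WT mean of 52.0 CPM ± 9.83 (SD, n = 6) the mutant levels were 59.1%, 23.5%, 15.2%, 84.8%, 25.4% and 53.9%, which is lower in each library than the relative Ler share of the members from SOX on.

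**Figure D3:**
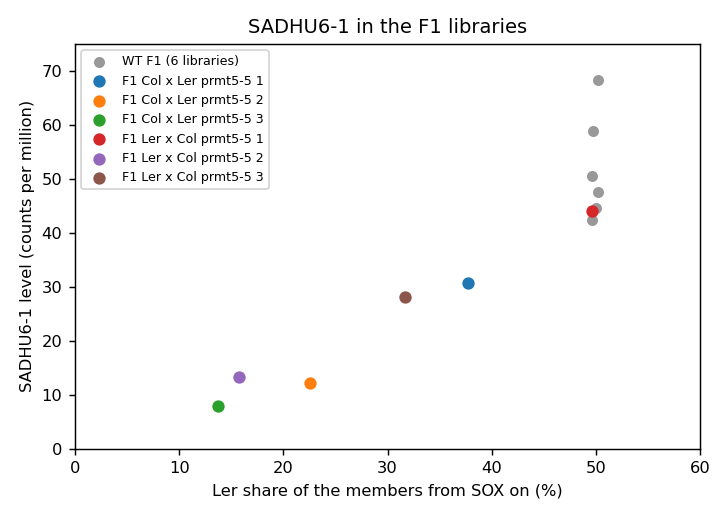
SADHU6-1 level in each F1 library (CPM of all allele counts) against the Ler share of the members from SOX on (%). WT libraries lie between 42.4 and 68.3, and among the prmt5-5 libraries the level is lowest, 7.93, where the Ler share is lowest, 13.74%.

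Between the parents, accession differences were called in fewer members in prmt5-5 than in WT. In WT, 98 of 385 members tested differed between Ler and Col, or 25.5%, next to 29.8% of all genes tested. Of these 43 were higher in Ler (background 14.5%) and 55 lower (15.2%). In prmt5-5, 47 members differed, or 12.2%, next to 28.1% of all genes, with 25 higher (14%) and 22 lower (14.1%). Members thus lay near the background in WT and under it in prmt5-5, while in the next 1.4 Mb 25.3% of 379 genes differed in WT and 27.2% in prmt5-5. The calls are from edgeR's quasi-likelihood test with Benjamini-Hochberg adjustment over all genes, at 0.05. Without replicate 2 of prmt5-5 Col, 29 members were called in prmt5-5.

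**Figure D4:**
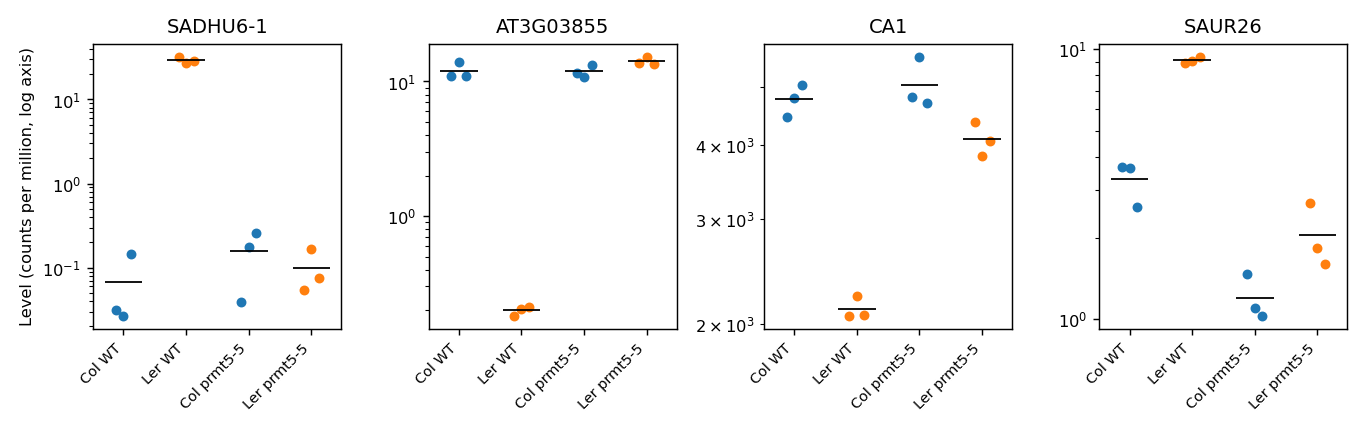
Level (CPM, log axis) of SADHU6-1, AT3G03855, CA1 and SAUR26 in each of the 12 parental libraries, by group, with lines at the group means. SADHU6-1 lies at 26.8 to 32.0 CPM in Ler WT and at most at 0.256 CPM in the other 9 libraries, and AT3G03855 lies at 0.18 to 0.212 CPM in Ler WT and at 10.7 CPM or more elsewhere.

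Of the 98 members called in WT, 21 were also called in prmt5-5, 15 of them with the same sign. These 21 are 21.4% of the WT calls and 44.7% of the prmt5-5 calls. Over all other genes 3876 were called in both, which is 57.6% of the WT calls and 60.7% of the prmt5-5 calls, and 3807 of them had the same sign. Among the 20 members with an at least 2-fold accession difference in WT, the difference in prmt5-5 divided by that in WT had a median of 0.28 and quartiles of -0.02 and 0.45. Over the 2234 other genes chosen in the same way the median was 0.85, with quartiles of 0.52 and 1.1, and over 24 genes of the next 1.4 Mb it was also 0.85. The 3 prmt5-5 Ler libraries taken singly gave 0.16, 0.28 and 0.25 for the members, so no single one of them set the value. With an at least 4-fold difference in WT, 7 members remained and their median was -0.04, which is a change of sign.

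The accession difference itself depended on the genotype in 26 members, or 6.75% of those tested, next to 3.35% of all genes. It moved up in prmt5-5 in 18 of them (background 1.59%) and down in 8 (1.76%). All 26 moved against the sign of their WT difference, as did 631 of the 769 genes called anywhere (82.1%), a measure that contains the WT difference itself. Called members numbered 17 without replicate 3 of Col WT and 45 without replicate 1 of prmt5-5 Ler, and the count over all genes moved alike, to 380 and 1744. With any 1 of the 12 parental libraries left out, 16 of the 26 kept the call each time.

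**Figure D5:**
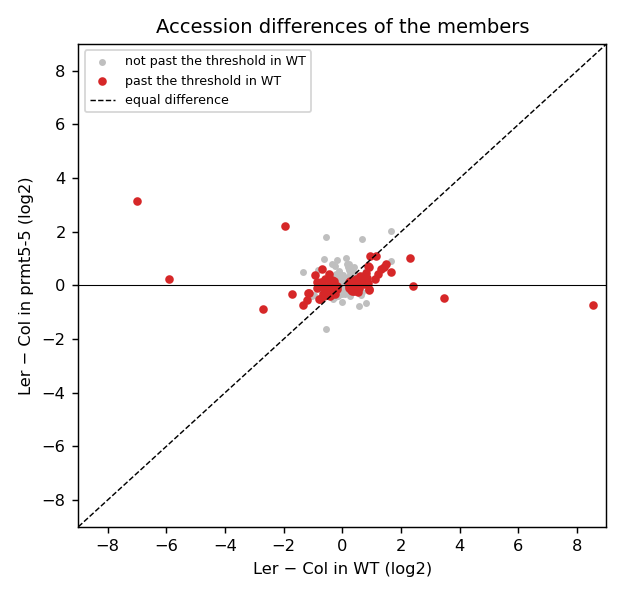
Difference between Ler and Col (log2) of each member in prmt5-5, vertical, against the same in WT, horizontal; red points passed the threshold in WT and the dashed line marks equal differences. Most red points lie along the horizontal zero line, and the leftmost, AT3G01345, is placed by a fitted value because its Ler WT count is 0.

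SADHU6-1 showed the largest such change among members with counts in all 4 parental groups. It stood at 0.0314, 0.0266 and 0.144 CPM in Col WT and at 32.0, 26.8 and 28.4 CPM in Ler WT. In prmt5-5 it stood at 0.0388, 0.175 and 0.256 CPM in Col and at 0.0549, 0.167 and 0.0747 CPM in Ler. Ler WT was thus alone in carrying this RNA in amount, and prmt5-5 Ler overlapped Col. The log2 difference between Ler and Col was 8.55 ± 0.37 (SE, adjusted p = 1.21e-09) in WT and -0.74 ± 0.61 (adjusted p = 0.413) in prmt5-5, and the interaction was -9.29 ± 0.86 (adjusted p = 0.000129).

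AT3G03855, a pseudogene of a disease resistance protein, had the opposite pattern. Its levels were 10.97, 14.02 and 10.92 CPM in Col WT and 0.18, 0.205 and 0.212 CPM in Ler WT. In prmt5-5 they were 11.7, 10.7 and 13.2 CPM in Col and 13.7, 15.2 and 13.5 CPM in Ler. Only Ler WT lay apart, and the prmt5-5 Ler libraries were above every Col library but 1. The log2 difference was -5.9 ± 0.18 (SE, adjusted p = 5.3e-12) in WT and 0.25 in prmt5-5 (adjusted p = 0.113), with an interaction of 6.15 ± 0.22 (adjusted p = 9.16e-10). In F1 it had 2 to 55 allele counts a library, of which 0 to 5 were Ler.

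AT3G01345, whose protein is uncharacterised, was at 0 in all 3 Ler WT libraries. It stood at 0.267, 0.239 and 0.344 CPM in Col WT, at 0.504, 0.349 and 0.407 CPM in prmt5-5 Col, and at 2.94, 4.56 and 3.66 CPM in prmt5-5 Ler. Against a floor of 3 counts over the group, Col WT was at least 14.1-fold higher than Ler WT and prmt5-5 Ler at least 184.8-fold higher. Unlike AT3G03855, it did not return to the Col level in prmt5-5 Ler but passed it, with a log2 difference of 3.13 ± 0.26 (SE, adjusted p = 2.1e-06).

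CA1 was measured at 4464, 4795 and 5056 CPM in Col WT and at 2064, 2234 and 2072 CPM in Ler WT. In prmt5-5 the values were 4825, 5625 and 4708 CPM in Col and 4378, 3834 and 4063 CPM in Ler. The WT groups were far apart, and prmt5-5 Ler lay between them, under all 6 Col libraries. The log2 interaction was 0.86 ± 0.14 (SE, adjusted p = 0.00464). The parental difference in WT was -1.17 ± 0.1 (SE, adjusted p = 5.05e-07). Between the alleles of WT F1 the log2 difference of CA1 was -0.45 in both fits, with an SE of 0.72 (adjusted p = 0.732) in the fit of all 12 F1 libraries and of 0.01 (adjusted p = 9.18e-24) in the fit of WT F1 libraries alone, which was added after the data had been seen.

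COL2, a CONSTANS-like zinc finger gene, differed between the accessions in WT and was not called in prmt5-5, where Col was at the level of Ler. It was at 67.0, 61.3 and 67.1 CPM in Col WT and 39.6, 33.7 and 33.2 CPM in Ler WT, and at 31.7, 35.4 and 27.8 CPM in prmt5-5 Col and 40.3, 31.5 and 30.1 CPM in prmt5-5 Ler. The log2 change in prmt5-5 was -1.04 ± 0.12 in Col (SE, adjusted p = 2.68e-05) and -0.06 ± 0.11 in Ler (SE, adjusted p = 0.706). PPT2, a plastid phosphoenolpyruvate translocator, likewise fell in prmt5-5 Col, with a log2 change of -0.67 ± 0.11 (SE, adjusted p = 0.000734), and its interaction was 0.88 ± 0.16 (SE, adjusted p = 0.0105).

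AT3G02790, a C2H2 zinc finger gene, changed sign. It stood at 14.9, 17.8 and 16.5 CPM in Col WT, 10.8, 9.14 and 10.3 CPM in Ler WT, 20.7, 16.4 and 19.9 CPM in prmt5-5 Col and 31.9, 26.5 and 29.1 CPM in prmt5-5 Ler, so Ler was lowest in WT and highest in prmt5-5. The log2 difference was -0.7 ± 0.11 (SE, adjusted p = 0.000195) in WT and 0.62 ± 0.1 (SE, adjusted p = 0.000454) in prmt5-5. Its Ler allele was also the lower one in WT F1, with a share of 26.1%. AT3G04550, a Rubisco accumulation factor, moved the other way: 134.4, 135.3 and 137.5 CPM in Col WT, 171.0, 179.5 and 191.0 CPM in Ler WT, and 131.0, 122.2 and 115.7 CPM in prmt5-5 Ler, with an interaction of -0.61 ± 0.1 (SE, adjusted p = 0.00526). In prmt5-5 Col it held 7172, 5649 and 9603 unscaled counts, in libraries of 49583415, 40048473 and 64803291 counts. Its log2 difference in WT was 0.41 ± 0.07 (SE, adjusted p = 0.000473).

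PR4, a chitin-binding pathogenesis-related protein, kept its difference. Its levels were 75.5, 81.2 and 67.0 CPM in Col WT and 112.5, 207.9 and 178.0 CPM in Ler WT, and 67.3, 57.5 and 68.5 CPM in prmt5-5 Col and 119.6, 163.6 and 126.6 CPM in prmt5-5 Ler. Ler lay above Col without overlap in both genotypes, by a log2 of 1.16 ± 0.19 (SE, adjusted p = 0.000738) and 1.08 ± 0.19 (SE, adjusted p = 0.0013).

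Levels of members also differed between prmt5-5 and WT within an accession. In Ler this sets the backcrossed prmt5-5 line against WT Ler. An effect of the mutation and a local difference of the backcrossed line cannot be told apart there. In Ler, 156 members changed, or 40.5% next to 35.7% of all genes, with 85 higher (background 18.9%) and 71 lower (16.9%). In Col, 105 changed, or 27.3% next to 26.9%, with 55 higher (14.6%) and 50 lower (12.3%). Flower markers summed to 1.18 to 2.93 CPM in Ler WT and 0.668 to 0.847 CPM in prmt5-5 Ler, and to 0.328 to 0.703 CPM in Col WT and 0.185 to 0.323 CPM in prmt5-5 Col; root markers stood at 38.8 to 47.3 CPM in Col WT and 61.1 to 70.0 CPM in prmt5-5 Col, with overlap in Ler (33.5 to 74.4 and 33.2 to 46.4 CPM). Shoot markers stood at 33500 to 35900 CPM in Col WT and 28600 to 30700 CPM in prmt5-5 Col, again with overlap in Ler. In F1 the shoot markers stood at 17500 to 23600 CPM in WT and 9630 to 16700 CPM in prmt5-5. Most of that F1 sum was LHCB1.3, at 15700 to 22000 CPM in WT F1 and 8610 to 15700 CPM in prmt5-5 F1. The part of these markers in the changes was not tested. Some rises were close in size in both accessions. AT3G02740, an aspartyl protease, stood at 27.9, 27.1 and 27.0 CPM in Col WT and 25.9, 26.1 and 27.7 CPM in Ler WT, and at 92.1, 86.2 and 83.4 CPM in prmt5-5 Col and 100.6, 81.0 and 84.7 CPM in prmt5-5 Ler. All 6 prmt5-5 libraries lay above all 6 WT libraries, by a log2 of 1.67 ± 0.08 in Col and 1.74 ± 0.08 in Ler (SE, adjusted p = 2.61e-08 and 1.02e-08).

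NEK2, a NIMA-related protein kinase, rose by a log2 of 1.64 ± 0.13 in Col and 1.67 ± 0.13 in Ler (SE, adjusted p = 9.45e-07 and 7.05e-07). The transcription factor NAC048 rose by 1.47 ± 0.17 and 1.42 ± 0.17 (SE, adjusted p = 3.97e-05 and 4.01e-05). AT3G02100, a glycosyltransferase, fell in both accessions, at -1.51 ± 0.35 in Col and -2.79 ± 0.29 in Ler (SE, adjusted p = 0.00612 and 1.21e-05).

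About as many hormone genes fell as did not pass the test. Of 13 members tested in the list of hormone signalling and response, 7 fell in Ler and 7 in Col, none rose and 6 did not pass in each, next to 16.9% of all genes lower in Ler and 12.3% in Col, with median log2 changes of -0.25 and -0.3 beside 0.008 and 0.006 over all genes. They include the auxin-induced genes SAUR26, SAUR27, SAUR28 and SAUR29, which adjoin one another and are similar in sequence, so reads may have been shared between them. SAUR26 stood at 3.67, 3.64 and 2.61 CPM in Col WT, 8.89, 9.07 and 9.37 CPM in Ler WT, 1.47, 1.1 and 1.03 CPM in prmt5-5 Col and 2.69, 1.84 and 1.61 CPM in prmt5-5 Ler. Each prmt5-5 group lay below its WT group, with log2 changes of -1.46 ± 0.21 in Col and -2.14 ± 0.2 in Ler (SE, adjusted p = 0.000237 and 4.41e-06). In SAUR28 the fall in Col, -1.14 ± 0.35 (SE, adjusted p = 0.0287), was lost at an adjusted p of up to 0.115 without Col WT replicate 1 or 3 or prmt5-5 Col replicate 1 or 2.

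Cytosolic ribosomal protein genes rose in all 7 listed members in prmt5-5 Ler, with a median log2 change of 0.38, and in 2 of the 7 in prmt5-5 Col, with a median of 0.13. Of all genes, 18.9% rose in Ler and 14.6% in Col. RPSAb rose in both, by 0.38 ± 0.09 in Ler and 0.26 ± 0.09 in Col (SE, adjusted p = 0.00384 and 0.0368), and AT3G04230, annotated as a ribosomal protein S5 domain protein, by 1.66 ± 0.12 in Ler and 0.34 ± 0.11 in Col (SE, adjusted p = 3.88e-07 and 0.0413). Only AT3G04230 had a called interaction, 1.32 ± 0.16 (SE, adjusted p = 0.00105), so a difference between accessions was not shown for the other members. The Col call of RPSAb was lost, at an adjusted p of up to 0.127, without any one of the 6 Col libraries. That of AT3G04230 was lost, at an adjusted p of up to 0.16, without any one of 7 libraries, namely the 3 Col WT libraries, prmt5-5 Col replicates 1 and 3 and prmt5-5 Ler replicates 2 and 3.

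Primary metabolism, with 14 members tested, had 2 members higher and 5 lower in Ler WT than in Col WT and none called in prmt5-5. Over all genes, 14.5% were higher and 15.2% lower in WT, and 14% and 14.1% in prmt5-5. Among the metabolic members, CS26, of the cysteine synthase family, differed by a log2 of 0.55 ± 0.1 in WT (SE, adjusted p = 0.00053), and UGP1, a UDP-glucose pyrophosphorylase, by -0.51 ± 0.12 (SE, adjusted p = 0.00641). Of 11 chloroplast members, 1 was higher and 4 were lower in Ler WT, and 0 and 3 in prmt5-5. Of 10 transporters and channels, 2 were higher and 3 lower in WT, and 1 and 0 in prmt5-5. Transcription factors had 1 higher and 3 lower of 19 in WT, and 2 and 2 in prmt5-5. Immunity and RNA silencing had 2 of 8 higher in each genotype.

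Of the remaining lists, lipid enzymes had 2 higher and 2 lower of 8 in WT, protein kinases 0 and 1 of 6, and chromatin, RNA and DNA maintenance genes 1 and 1 of 10. Over all genes, 14.5% were higher and 15.2% lower in Ler WT than in Col WT. In the chromatin, RNA and DNA maintenance list 4 of 10 members rose in prmt5-5 Ler and 3 in prmt5-5 Col, and none fell. Of all genes, 18.9% rose and 16.9% fell in Ler, and 14.6% rose and 12.3% fell in Col. Whether such short lists depart from these shares was not tested. Every list had a median Ler share between 45.6% and 51.8% in WT F1 and between 17.0% and 27.4% in prmt5-5 F1, the latter being the values that chose the region.

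In WT F1, which played no part in the choice, a fit of all 12 F1 libraries called 10 of 295 members as differing between the alleles, or 3.39% next to 30% of all genes, with 6 higher for Ler (background 14.1%) and 4 lower (15.9%). That fit takes the spread of the members partly from the prmt5-5 F1 libraries. A fit of the 6 WT F1 libraries alone, added after the data had been seen, called 75 of 278 members, or 27.0% next to 31.8%, with 37 higher (15%) and 38 lower (16.8%). Without replicate 2 of prmt5-5 F1 Ler x Col, the fit of the other 11 libraries called 16.

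Allele differences of WT F1 lined up with WT parents and less so with prmt5-5 parents, and these 3 sets share no library. Of 74 members called in the WT F1 libraries alone and tested in the parents, 60 (81.1%) had the same sign as the WT parental difference and 46 (62.2%) the same sign as the prmt5-5 one. Spearman's rho across these members was 0.73 and 0.18. Across 4904 other genes the same shares were 84.3% and 83.3%, with rho of 0.77 and 0.76. Genes are not independent replicates, and neighbouring members share their parental libraries, so these are descriptions without a p.

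A difference between the crosses in WT F1 was called in 2 members of 278, next to 0.0191% of all genes, both with a lower Ler share in Col x Ler (background 0.0127%). LSF1, a phosphatase-like regulator of starch breakdown, had Ler counts of 1 of 27, 2 of 92 and 3 of 119 in WT Col x Ler and of 42 of 66, 83 of 151 and 80 of 173 in WT Ler x Col, without overlap (log2 difference -5.43 ± 0.52, SE, adjusted p = 7.57e-08). Its annotated span, chr3:198322-201810, overlaps the end of CA1, and no source used here says whether reads were counted by strand. AT3G01310, an inositol hexakisphosphate kinase, had Ler shares of 26.8%, 20% and 20.5% in Col x Ler and 60%, 48% and 54.8% in Ler x Col (log2 difference -2.07 ± 0.28, SE, adjusted p = 0.000102). In prmt5-5 F1 Col x Ler, the LSF1 counts were 35 of 79, 26 of 82 and 38 of 169, each a higher share than in the WT libraries of that cross. In the WT F1 libraries alone, 15 members had an unadjusted p under 0.05. The edgeR fit of all 12 libraries called 0 of 295 members for the cross, and 2 had an unadjusted p under 0.05.

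Members were also set against the level of their library. Taking the Ler to Col ratio relative to WT F1 and to the region, 181 members could be followed in all 6 prmt5-5 F1 libraries, with a median offset of -0.01 (log2), and 15 of them had the same sign in all 6. Another 63 could be followed in 5 libraries, with a median of -0.06, and 9 of these had the same sign in all 5. Every offset of a member subtracts the same WT F1 mean, so error in that mean moves all its libraries alike. The same counts over other genes were not made. The largest offsets were positive, at 3.16 ± 1.89 (SD, n = 6 libraries) in AT3G04920 and 2.64 ± 0.43 (SD, n = 5 libraries) in LSF1. That WT F1 mean pools both crosses, between which LSF1 differed in WT F1. The LSF1 offset therefore depends on this pooling, and an offset from the WT libraries of the same cross was not computed. NEK2, picked here after its values were seen, had Ler shares of 16.0%, 10.2% and 3.5% in prmt5-5 F1 Col x Ler and 27.1%, 8.0% and 22.5% in Ler x Col, below its region in every library. Its mean offset was -1.23 ± 0.48 (SD, n = 6 libraries), on 9 to 42 Ler counts a library, and WT F1 held 14 of 21, 14 of 36 and 14 of 31 Ler counts in Col x Ler and 12 of 33, 56 of 115 and 25 of 50 in Ler x Col.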

How the data were processed

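Counts per gene in the parental libraries and counts per allele and gene in the F1 libraries were used as the authors deposited them. Per the submitters' processing notes the tools were FastQC, Trim Galore and STAR 2.7.9a with genome TAIR10; the counting step, its strand setting and the rule for assigning alleles are named by no source used here. Of the allele counts from 1 to 20, 75.4% were even, so exact (Clopper-Pearson) 95% intervals, which cover counting error only, are too narrow where a fragment was counted as its mates. Members and gene lists were chosen with earlier results of these data known.

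Shares are summed Ler counts over summed allele counts of members with at least 20 in every F1 group. Some members had equal counts. SAMDC and AT3G02468 each held 100291 F1 allele counts, and HB-1 and AT3G01472 had the same count in every parental library. Sums and counts of members may thus hold the same reads more than once. Parental differences came from 1 edgeR 4.0.16 quasi-likelihood fit (R 4.3.3, robust, TMM, low-count filter) of 12 libraries, 22924 genes, two-sided, Benjamini-Hochberg adjusted p under 0.05; parental CPM are TMM-scaled, F1 CPM are scaled to all allele counts of a library. Allele effects in F1 (16644 genes) had the library as a block. Each SE given is the size of the log2 change divided by the square root of the test's F, not a fitted standard error. The accession by genotype interaction is the prmt5-5 change in Ler minus that in Col. Scripts were tested on simulated data. Sequences came from RefSeq TAIR10.1.

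Named members include the 5 largest called changes in each direction per comparison without overlap between replicates, WT differences of at least 3 (log2), the 5 with most allele counts, the edge genes, the strongest WT F1 allele effects and the 2 smallest p per list. Some others, among them UGP1 and RPSAb, were named outside these rules. Alternatives were RLE scaling, DESeq2 1.42.0, no filter, TMM per allele column, the replicate number as a block and each library left out. WT F1 libraries alone, and the difference between crosses, were added after seeing the data.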

Additional observations from a re-analysis of the deposited data

Results flagged for a closer look

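The accession difference depended on the genotype, by the interaction of the parental fit (edgeR's quasi-likelihood test, Benjamini-Hochberg adjustment), in the following members, given as the log2 change of the difference between Ler and Col from WT to prmt5-5. It rose by at least 6.96 in AT3G01345, by 6.15 in AT3G03855, by 4.14 in AT3G03670 (adjusted p = 0.0191), by 2.35 in AT3G02480 (adjusted p = 0.0232) and by 1.32 in AT3G04230. It was -9.29 in SADHU6-1, -1.08 in AT3G03702 (adjusted p = 0.00666), -0.87 in AT3G03700 (adjusted p = 0.0302), -0.8 in AT3G01310 (adjusted p = 0.0279) and -0.76 in TMAC2 (adjusted p = 0.0329).

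AT3G03670 and AT3G02480 were low throughout, at up to 1.33 and 2.09 CPM in any parental library. AT3G03700 and AT3G03702 overlap as an antisense pair, so their reads cannot be told apart without strand. The calls of AT3G02480 and AT3G01310 were lost without any one of 7 of the 12 libraries (adjusted p up to 0.0698 and 0.0842), that of AT3G03700 without any one of 6 (up to 0.0913) and that of TMAC2 without any one of 9 (up to 0.101). The calls of the other 6 members were kept with each library left out.

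Between the crosses of WT F1, the log2 difference in the Ler to Col allele ratio was -5.43 in LSF1 and -2.07 in AT3G01310, Col x Ler minus Ler x Col, and both calls were kept with each of the 6 WT F1 libraries left out.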

How the results depend on the processing

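Members called per comparison kept within 1.5 times of the reported count under RLE scaling, DESeq2, no filter and the replicate block. DESeq2 called 108 in Ler against Col in WT, 59 in prmt5-5, 36 for the interaction, 169 and 119 for prmt5-5 in Ler and Col, and 10 in WT F1; over all genes it called 1633 for the interaction, against 769. With each library left out in turn, calls ranged from 73 to 114 for Ler against Col in WT, 29 to 55 in prmt5-5, 17 to 45 for the interaction, 134 to 163 and 73 to 126 for prmt5-5 in Ler and Col, 7 to 16 in WT F1, and 56 to 68 in WT F1 libraries alone (75 with all). The median ratio of accession differences ranged from 0.26 to 0.36, highest without replicate 2 of Col WT, and was -0.04 with an at least 4-fold WT difference.

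The WT F1 share was 50.08% and 50.4% (Col x Ler, Ler x Col) without the 5 members with most allele counts, and 50% and 50.08% as the median of members' shares. Those 5 include SAMDC and AT3G02468, which had equal allele counts. Leaving out a library moved the prmt5-5 F1 shares between 17.31% and 28.96% in Col x Ler and between 20.16% and 39.42% in Ler x Col.

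With the replicate number as a block, 99, 41, 28, 155 and 99 members were called in the 5 parental comparisons, in the order above. Deviations of same-numbered samples correlated by over 0.1 only between Ler WT and prmt5-5 Ler, replicates 1 (0.332) and 2 (0.228). Ler WT replicates 1 and 2 each correlated best with their own number among the prmt5-5 Ler libraries, and replicate 3 did not (-0.0347). With 3 samples a group, these correlations cannot exclude pairing by number. The main fit was unpaired.

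None of the called members changed sign under any alternative run. The causes of these shifts were not tested.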
